A study of Oryza sativa with 12 samples.

Results

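The genes described here are 5 members of the C2H2 zinc finger family with described roles in stress, measured in seedlings of rice (Oryza sativa). They are ZFP182 (LOC_Os03g60560), ZFP179 (LOC_Os01g62190), ZFP252 (LOC_Os12g39400), DST (LOC_Os03g57240) and ZFP36 (LOC_Os03g32230). The 5 were chosen by locus, out of 39093 loci in the deposited tables, and each had 1 row of its own, shared with no other locus, in all 12 libraries. The study compared 4 groups of 3 RNA sequencing libraries. N22, which the submitters call tolerant of drought, and IR64, which they call sensitive, were each kept for 6 h in a 20% solution of polyethylene glycol 6000 (called drought here) or in purified water (control). All seedlings were 21 days old and came from a culture room, with the organ not stated, and the values are taken as those of the seedling. The treatment lowers the water potential around the roots within hours and is a model of sudden osmotic stress, not of drying soil.

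C2H2 zinc finger proteins bind DNA through a loop in which a pair of cysteines and a pair of histidines hold a zinc ion, and many plant members act in responses to drought, salt and cold. In rice, ZFP182, ZFP179 and ZFP252 are known as factors whose overexpression raised tolerance of salt or drought, with more proline and soluble sugars in the case of ZFP252. DST (DROUGHT AND SALT TOLERANCE) is known as a regulator of the opposite sort: it controls genes that remove hydrogen peroxide in guard cells, and its loss closes stomata and raises tolerance. ZFP36 is known for its part in the antioxidant defence that abscisic acid (ABA) induces, and the same locus is described as Bsr-d1, whose reduced expression gives resistance to rice blast. The family name was not checked against protein sequences.

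Values are FPKM, fragments counted on a transcript after division by its length and by the size of the library, so that levels of different genes are comparable per length. Each library listed 30625 to 32107 rows, and how many reads lay behind a value is unknown. Changes are differences of log2(FPKM + 1) between group means with a standard error (SE), which shows less than the full change where a gene is low. A gene is said to rise or fall if the adjusted p of limma, a linear model fitted to all 24276 loci tested, was at most 0.05 and the change at least 1. All 5 genes passed the filter on low values. In both cultivars the third drought library differed least from the control library of the same replicate number. Over the 2845 loci called in N22 the median change in the called direction was 1.60 and 1.79 in replicate numbers 1 and 2 and 0.80 in number 3, and over the 2031 loci called in IR64 it was 1.40, 1.58 and 1.14. No label says that the libraries came from separate cultures, although the design text calls them biological replicates, and p-values measure the spread between them.

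In N22, 3 of the 5 genes rose under drought (ZFP182, ZFP179 and ZFP252), DST fell, and ZFP36 did not pass. Of all loci tested, 11.7% were called in that comparison, 6.55% higher and 5.17% lower. In IR64, ZFP182 and ZFP179 rose and the other 3 did not pass, where 8.37% of all loci were called, 4.35% higher and 4.02% lower. The median change of the 5 was 1.42 in N22 and 0.99 in IR64, beside a median of 0 over all loci tested in each. These genes were picked for described roles in stress and with earlier results of these data known, so their counts are not a sample of the family. The 3 lists of further genes below were also chosen with those results known. Their counts beside the shares of all loci are a description, not a test.

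**Figure D1:**
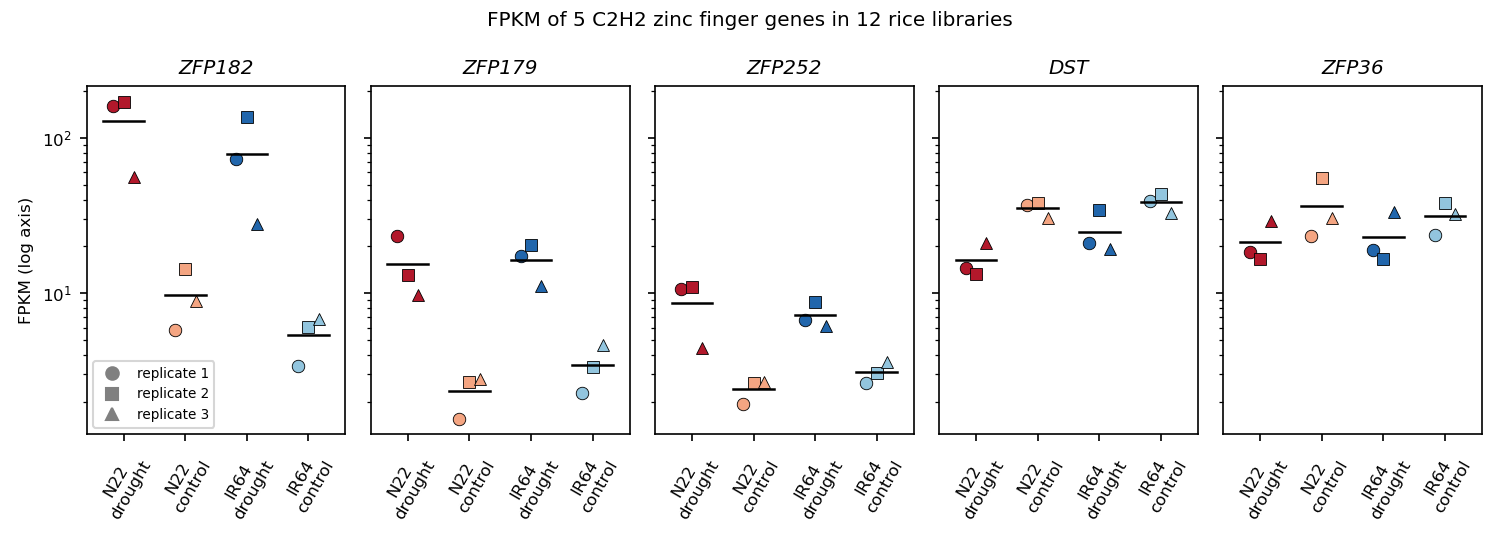
FPKM (log axis) of the 5 genes in the 12 libraries. Each point is 1 library, its shape gives the replicate number, and the horizontal line is the mean of the 3 libraries. In both cultivars the 3 drought points of ZFP182, ZFP179 and ZFP252 lie above the 3 control points, and the drought points of DST lie below the control points in N22.

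ZFP182, which is known to act in ABA-induced antioxidant defence, had the largest change of the 5. It stood at 159, 170.15 and 55.9 FPKM in N22 drought libraries 1 to 3, against 5.79, 14.3 and 8.96 in N22 controls. In IR64 it stood at 73.3, 135 and 27.7 FPKM under drought, against 3.42, 6.02 and 6.80 in controls. All drought values were above all control values of the same cultivar, and the third drought library was the lowest of its group in both. In such bulk samples, a change in the share of a cell type and a change in RNA per cell cannot be told apart. The means were 128 ± 63.0 FPKM in N22 drought and 9.69 ± 4.31 in N22 control, and 78.7 ± 53.9 in IR64 drought and 5.41 ± 1.77 in IR64 control (SD, n = 3 each). The log2 change was 3.52 in N22 (SE 0.58, limma's adjusted p = 0.00169) and 3.41 in IR64 (SE 0.58, adjusted p = 0.00298), the 103rd and 55th largest rise of 24276 loci. The ratio of means was 13.2 in N22 and 14.5 in IR64. Within the libraries ZFP182 stood above 77.6% to 97.2% of all tested loci under drought and above 28.5% to 62.0% in controls.

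ZFP179, described as a factor of salt tolerance, was among the lowest of the 5 in water. It had 23.5, 13.1 and 9.76 FPKM in N22 drought libraries, against 1.56, 2.67 and 2.80 in N22 controls. In IR64 it had 17.4, 20.3 and 11.1 FPKM under drought, against 2.28, 3.34 and 4.67 in controls. The groups did not overlap in either cultivar. The change was 2.23 in N22 (SE 0.32, limma's adjusted p = 0.00103) and 1.96 in IR64 (SE 0.32, adjusted p = 0.00274). Both calls of ZFP179, like both of ZFP182, were made under all 25 alternatives run.

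ZFP252, which in overexpressing rice raised proline and sugars, changed less. It had 10.6, 11.0 and 4.41 FPKM in N22 drought libraries, against 1.94, 2.66 and 2.69 in N22 controls. In IR64 it had 6.77, 8.72 and 6.19 FPKM under drought, against 2.64, 3.08 and 3.62 in controls. Here too the groups did not overlap in either cultivar. In N22 it rose by 1.42 (SE 0.27, limma's adjusted p = 0.00309). In IR64 the change was 0.99 (SE 0.27, adjusted p = 0.0201), just short of the change of 1 that a call needed. It was called in IR64 under 7 of 25 alternatives, among them a pseudocount of 0.1 (1.18), without the third drought library (1.08), without the first (1.03) and without the third control (1.08).

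DST had the opposite direction. It stood at 14.5, 13.3 and 21.0 FPKM in N22 drought libraries, against 37.1, 38.0 and 30.4 in N22 controls, with no overlap. In IR64 it stood at 21.2, 34.3 and 19.2 FPKM under drought, against 39.3, 43.6 and 32.8 in controls, where the second drought library lay above the third control. The means were 16.3 ± 4.18 FPKM in N22 drought and 35.2 ± 4.18 in N22 control, and 24.9 ± 8.24 in IR64 drought and 38.6 ± 5.47 in IR64 control. DST fell in N22 by a change of -1.09 (SE 0.22, limma's adjusted p = 0.00446), to 0.462 of the control mean. Without the second N22 drought library the change was -0.96 and not called (adjusted p = 0.0213). In IR64 the change was -0.65 (SE 0.22, adjusted p = 0.0511). It was called under none of the 25 alternatives, with changes of -0.90 to -0.49 and adjusted p from 0.000256 to 0.149.

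ZFP36 did not pass in either cultivar. Within each treatment its replicate numbers stood in the same order in both cultivars, but that order differed between drought and control. It had 18.4, 16.6 and 28.9 FPKM in N22 drought libraries, against 23.3, 55.3 and 30.4 in N22 controls. In IR64 it had 18.9, 16.7 and 33.2 FPKM under drought, against 23.8, 38.3 and 32.4 in controls. The groups overlapped in both cultivars. In each the second library was the highest of the controls and the lowest under drought, where the third was the highest. The change was -0.69 in N22 (SE 0.35, limma's adjusted p = 0.139) and -0.48 in IR64 (SE 0.35, adjusted p = 0.324). Single libraries moved it both ways without a call: in N22 it was -0.35 without the second control (adjusted p = 0.443) and -0.95 without the first control (0.0753), and in IR64 it was -0.29 without the second drought library (0.647) and -0.77 without the third (0.114). With the third drought library of each cultivar left out it was -0.92 in N22 (adjusted p = 0.0383) and -0.77 in IR64 (0.0847), and with array weights, which give libraries unequal weight by their fit, -0.78 (0.00286) and -0.71 (0.0120), all short of a change of 1.

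The share of all tested loci whose 3 drought values lay above all 3 control values was 25.5% in N22 and 22.3% in IR64, and below them 26.1% and 23.2%. Of the 5 genes, 3 lay above in N22 and the same 3 in IR64, and DST lay below in N22 and overlapped in IR64.

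**Figure D2:**
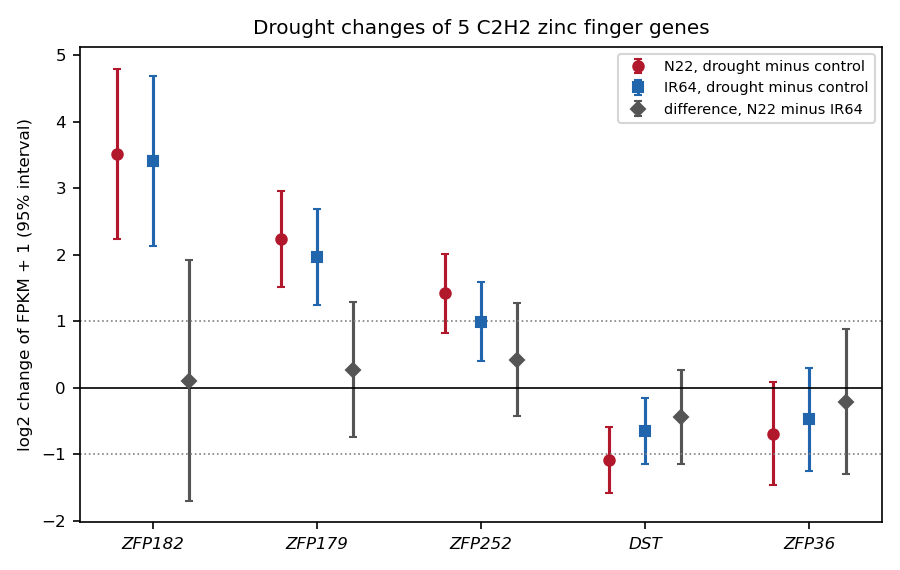
Change of log2(FPKM + 1) for the 5 genes, drought minus control in N22 (circles) and IR64 (squares), and the difference of both changes, N22 minus IR64 (diamonds). Bars are 95% intervals from limma and dotted lines mark the change a call needed. The intervals of all 5 differences include 0.

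Libraries with the same replicate number shared deviations over all loci, so the change was also read within each replicate number. For ZFP182 it was 4.56, 3.48 and 2.51 in N22 for numbers 1, 2 and 3, and 4.07, 4.28 and 1.88 in IR64. For ZFP179 it was 3.26, 1.94 and 1.5 in N22 and 2.49, 2.3 and 1.10 in IR64. For ZFP252 it was 1.98, 1.72 and 0.55 in N22 and 1.09, 1.25 and 0.64 in IR64. In each of these 3 genes and both cultivars the third pair gave the smallest change, as it did over the called loci at large. DST went the other way in 3 of 3 pairs of each cultivar, by -1.30, -1.45 and -0.51 in N22 and by -0.86, -0.34 and -0.74 in IR64. ZFP36 gave -0.33, -1.68 and -0.07 in N22 and -0.32, -1.15 and 0.04 in IR64, so that the second pair was the lowest in both cultivars. With the replicate number as a block, the size of a change stays the same by construction in this balanced design, and only its SE can differ. In that fit limma's adjusted p for ZFP36 was 0.0986 in N22 and 0.254 in IR64. What the numbers stand for is not given in the labels, and their part in these values was not tested.

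**Figure D3:**
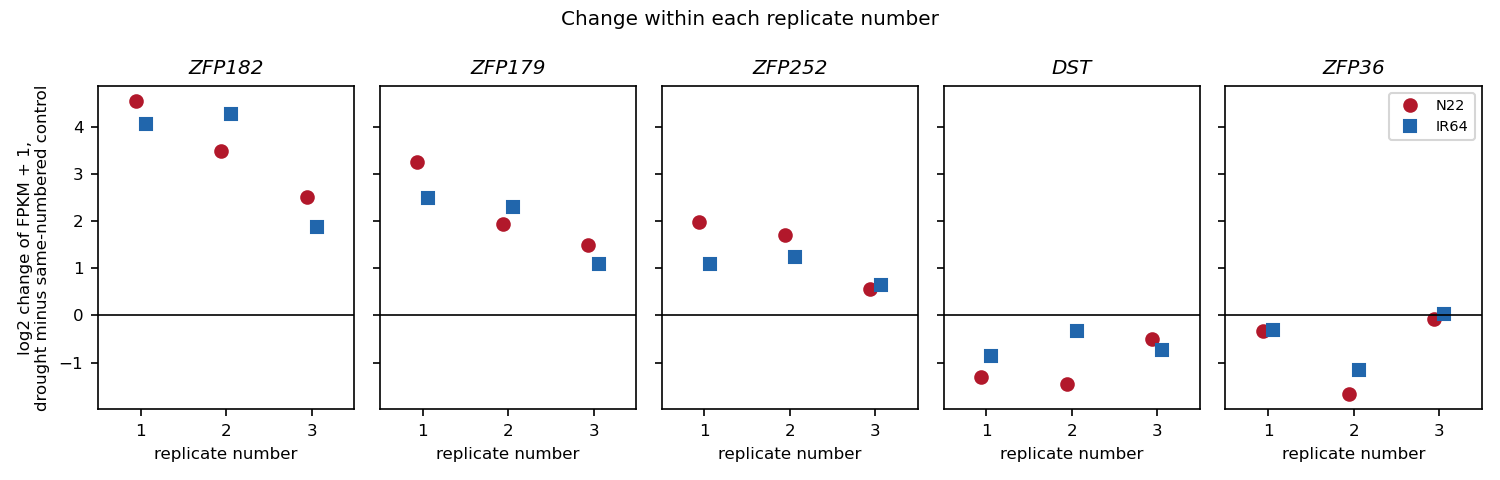
Change of log2(FPKM + 1) between the drought library and the control library of the same replicate number, for N22 (circles) and IR64 (squares). The third pair gave the smallest change for ZFP182, ZFP179 and ZFP252 in both cultivars, and the second pair the lowest value for ZFP36.

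The order of the 5 genes by level differed between treatments. In control libraries DST and ZFP36 led, at 35.2 and 36.3 FPKM in N22 and 38.6 and 31.5 in IR64, and their values overlapped. ZFP182 followed at 9.69 FPKM in N22 and 5.41 in IR64, below every value of that pair. ZFP252 and ZFP179 came last, at 2.43 and 2.35 FPKM in N22 and 3.12 and 3.43 in IR64, again with overlapping values. In N22 controls ZFP182 lay above every value of both, whereas in IR64 controls its values overlapped those of both. Under drought ZFP182 led in 3 of 3 N22 libraries, with values apart from those of the next gene. In IR64 it led in the first and second drought libraries, and in the third ZFP36 was higher, at 33.2 against 27.7 FPKM. ZFP36, DST and ZFP179 followed under drought, at 21.3, 16.3 and 15.5 FPKM in N22 and 22.9, 24.9 and 16.3 in IR64, with neighbours in that order overlapping. ZFP252 was the lowest in 6 of 6 drought libraries.

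The cultivars were then compared directly. None of the 5 genes passed for the difference of the drought responses, where 0.247% of all loci were called, 0.189% with the higher change in N22 and 0.0577% with the lower, and 0 of 5 stood at an unadjusted p below 0.05. N22 minus IR64, the difference was 0.11 for ZFP182 (95% interval -1.70 to 1.92), 0.27 for ZFP179 (-0.74 to 1.29), 0.42 for ZFP252 (-0.42 to 1.27), -0.44 for DST (-1.14 to 0.27) and -0.21 for ZFP36 (-1.30 to 0.88), each with limma's adjusted p = 1.00. Each of the 5 intervals reaches past a difference of 1 on at least one side. DST thus fell in N22 and missed the call in IR64 without a shown difference between them. With array weights the difference was 0.86 for ZFP252 (adjusted p = 0.00570) and 0.86 for ZFP179 (adjusted p = 0.0474), both short of the change of 1.

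Between the cultivars under the same treatment, none of the 5 passed under drought, where 10.7% of loci were called (5.82% higher and 4.91% lower in N22), or in control, where 9.92% were (5.07% higher and 4.84% lower in N22). All 5 genes had overlapping N22 and IR64 values in both treatments. Under drought the N22 minus IR64 change was 0.81 for ZFP182 (SE 0.58, limma's adjusted p = 0.384) and -0.57 for DST (SE 0.22, adjusted p = 0.101), the one gene of the 5 at an unadjusted p below 0.05. For ZFP182 that change was 0.20 with IR64 drought library 3 left out, 0.53 with N22 drought library 2, 1.33 with IR64 drought library 2 and 1.32 with N22 drought library 3 left out, with no call (adjusted p from 0.115 to 0.853), and it was called with array weights (1.10, adjusted p = 3.47e-05). For DST it was -0.32 with IR64 drought library 2 left out (adjusted p = 0.273), -0.76 with N22 drought library 3 left out (0.0305), -0.91 with library 3 of both drought groups left out (0.0146) and -0.53 with array weights (1.62e-05), each short of a change of 1. In control the change lay between -0.39 (ZFP179) and 0.70 (ZFP182). Reads of both cultivars were aligned to 1 rice genome, and how sequence differences between cultivars bear on these values was not tested.

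No other C2H2 gene with a described role in rice that was listed here passed under drought. Of 6 tested, 0 passed in N22 and 0 in IR64 by limma's test, where 11.7% and 8.37% of all loci were called. In each cultivar 2 of the 6 stood at an unadjusted p below 0.05, which is common over all loci. By the adjusted p alone, a stricter limit, 9475 of 24276 loci were called in N22 and 7272 in IR64. The median change was -0.03 in N22 and -0.04 in IR64. ZFP245, described in cold and drought responses and the most abundant of them, had 62.2 ± 0.499 FPKM in N22 drought and 69.9 ± 4.59 in N22 control, and 71.2 ± 1.73 in IR64 drought and 74.5 ± 5.41 in IR64 control. The 2 with an unadjusted p below 0.05 were MSR15 (LOC_Os03g41390), with changes of 0.70 in N22 (limma's adjusted p = 0.0461) and 0.61 in IR64 (0.0928), and PINE1 (LOC_Os12g42250), with -0.92 in N22 (0.0458) and -0.80 in IR64 (0.0897). ART1, the factor of aluminium tolerance, was lower in N22 than in IR64 under drought, at 6.74 ± 0.747 against 14.6 ± 0.274 FPKM (change -1.02, SE 0.09, adjusted p = 5.33e-06), the 1 call of the list between cultivars. That change was -0.94 without the third N22 drought library and -0.95 with array weights or without replicate 3 of every group, each time not called. In control ART1 was lower in N22 as well, at 5.94 ± 0.245 against 12.7 ± 0.520 FPKM in IR64. The control change of -0.98 (SE 0.09, limma's adjusted p = 6.87e-06) was just short of a call. SL1, a factor of flower organs, lay below the filter.

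Genes described as partners of the 5 or as acting downstream of them moved in both directions. Of 9 tested, 4 rose and 1 fell in N22, and 3 rose and 1 fell in IR64, with medians of -0.18 and -0.05. Beside these counts, 6.55% of all loci tested were called higher and 5.17% lower in N22, and 4.35% and 4.02% in IR64. DCA1 (LOC_Os10g31850), known as a protein that binds DST and assists it, had 179 ± 45.0 FPKM in N22 drought and 36.2 ± 3.5 in N22 control, and 132 ± 35.0 in IR64 drought and 28.5 ± 4.51 in IR64 control. It rose by 2.25 (SE 0.22, limma's adjusted p = 0.000162) in N22 and by 2.15 (SE 0.22, adjusted p = 0.000357) in IR64, in the direction opposite to that of DST. The cytokinin oxidase CKX2, a described target of DST in panicles, was low throughout, at 1.01 ± 0.661 FPKM in N22 drought and 1.56 ± 0.374 in N22 control, and 0.799 ± 0.494 in IR64 drought and 1.69 ± 0.437 in IR64 control, and did not pass.

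Of 2 peroxidase genes described as targets of ZFP36 (under its name Bsr-d1), LOC_Os10g39170 fell in both cultivars. It had 10.4 ± 4.95 FPKM in N22 drought and 23.1 ± 1.22 in N22 control, and 8.67 ± 2.87 in IR64 drought and 18.4 ± 1.17 in IR64 control. The change was -1.17 in N22 (SE 0.26, limma's adjusted p = 0.00664) and -1.05 in IR64 (SE 0.26, adjusted p = 0.0147). The N22 call was lost without the second drought library (-0.96), and the IR64 call without the first (-0.89) or second drought library (-0.97) or the second control (-0.996). The other, LOC_Os05g04470, had changes of -0.60 and -0.42 and did not pass. MYBS1, a factor that binds the Bsr-d1 promoter, and the kinase MPK5 did not pass either, with changes of -0.23 and -0.18 in N22 and -0.05 and -0.11 in IR64.

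Downstream genes reported from plants that overexpress ZFP182, ZFP179 or ZFP252 made up the rest of the calls. All 3 rose in N22. LEA3, a protective protein of drying cells, had means of 2006 ± 1018 FPKM in N22 drought and 6.64 ± 4.48 in N22 control, and 535.5 ± 333 in IR64 drought and 5.36 ± 1.37 in IR64 control. It rose by 8.08 (SE 0.60) in N22 and by 6.18 (SE 0.60) in IR64. The proline enzyme P5CS1 rose by 1.55 (SE 0.20) in N22 and by 1.16 (SE 0.20) in IR64, with means of 99.9 and 32.5 FPKM in N22 drought and control. DREB2A, a factor of dehydration responses, rose by 1.23 (SE 0.16) in N22, and its change of 0.98 in IR64 (adjusted p = 0.00245) was short of a call. LEA3 was also higher in N22 than in IR64 under drought, with a change of 1.99 (SE 0.60, limma's adjusted p = 0.0346). The adjusted p no longer met the threshold with no minimum level for testing (0.0587), with only the 6 libraries compared (0.0978), or without the first N22 (0.102), second N22 (0.121), first IR64 (0.0642) or the third IR64 (0.118) drought library. These genes respond to many factors, and the part of the 5 in their change was not tested.

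**Figure D4:**
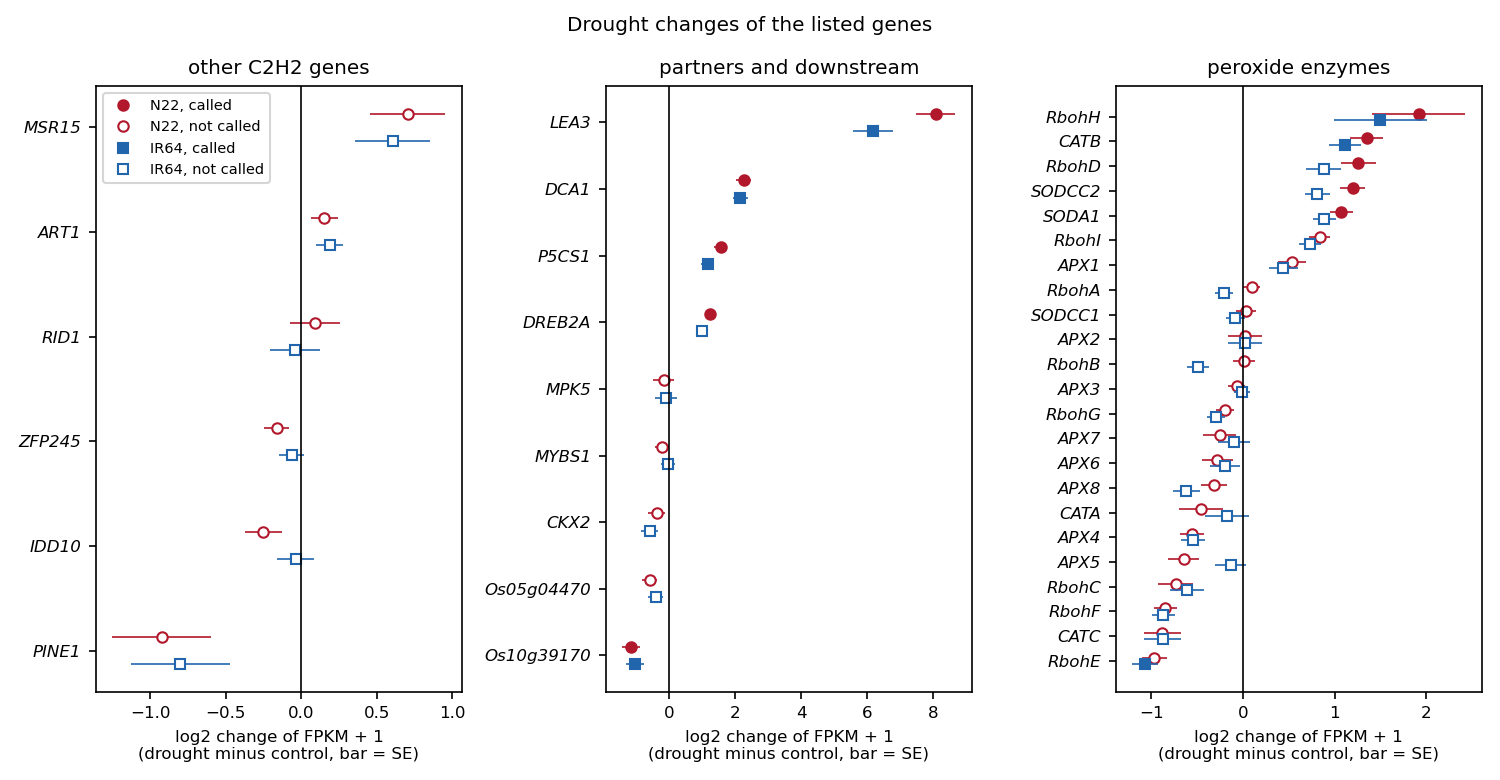
Change of log2(FPKM + 1), drought minus control, in N22 (circles) and IR64 (squares) for the other C2H2 genes, the partners and downstream genes and the enzymes of hydrogen peroxide, each with its SE. Filled symbols were called. None of the 6 C2H2 genes tested in the first list was called under drought, and other members of the family were not surveyed. LEA3 and DCA1 had the largest rises of the second list.

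Hydrogen peroxide is the signal that both DST and ZFP36 are described to act on, and 23 genes of its formation and removal were tested. In N22, 5 rose and 0 fell, and in IR64, 2 rose and 1 fell, with median changes of -0.07 and -0.14. For all loci tested, the shares called were 6.55% higher and 5.17% lower in N22, and 4.35% and 4.02% in IR64. Among the NADPH oxidases, which start its formation, RbohH (LOC_Os12g35610) rose by 1.92 (SE 0.51, limma's adjusted p = 0.0140) in N22 and by 1.5 (SE 0.51, adjusted p = 0.0479) in IR64. The N22 call of RbohH was lost without the first drought library (1.59, adjusted p = 0.06) and without replicate 3 of every group (1.91, adjusted p = 0.0797). Its IR64 call was lost without any one of the 6 IR64 libraries but the second drought library, without any 1 N22 control or the third N22 drought library, with no filter (adjusted p = 0.0897) and with only the 6 libraries compared (0.0943). RbohD (LOC_Os05g38980) rose by 1.26 (SE 0.19) in N22 from a low level, with means of 2.60 FPKM under drought and 0.452 in control. RbohE (LOC_Os01g61880) fell by 1.07 (SE 0.14) in IR64, or -0.99 and not called without the first drought library, and its change in N22 was -0.97 (adjusted p = 0.000940), short of a call. RbohF and RbohC had changes of -0.85 and -0.74 in N22 and -0.87 and -0.61 in IR64, and RbohI 0.84 and 0.73, none of them called.

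Among the enzymes that remove it, the catalase CATB rose by 1.35 (SE 0.18) in N22 and by 1.11 (SE 0.18) in IR64, or 0.998 and not called in IR64 without the second drought library. The catalase CATC (LOC_Os03g03910) had changes of -0.88 in both cultivars, short of a call. The superoxide dismutases SODCC2 and SODA1 (LOC_Os05g25850), which form peroxide from superoxide, rose in N22 by 1.2 (SE 0.14) and 1.08 (SE 0.13), SODA1 not with quantile scaling (0.94). None of 8 ascorbate peroxidases was called under drought. APX1, the most abundant gene of the list, had 1073 ± 128 FPKM in N22 drought and 739 ± 79.2 in N22 control, and 903 ± 112 in IR64 drought and 664 ± 72.9 in IR64 control. Its change was 0.54 in N22 (adjusted p = 0.0211) and 0.44 in IR64 (adjusted p = 0.0562). APX5 differed between cultivars in both treatments, at 3.30 ± 1.08 FPKM in N22 against 0.261 ± 0.0434 in IR64 under drought (change 1.74, SE 0.17) and 5.60 ± 0.639 against 0.387 ± 0.106 in control (change 2.25, SE 0.17).

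The loci next to the 5 genes by locus number held few calls, among them both loci on one side of ZFP182. Of 20 neighbours (2 on each side), 17 were tested, 3 were called in N22 and 2 in IR64. With so few loci these counts are near the shares of all tested loci called, 11.7% in N22 and 8.37% in IR64. LOC_Os03g60570, next to ZFP182, had 50.5, 47.8 and 28.8 FPKM in N22 drought libraries, against 11.9, 30.9 and 15.7 in N22 controls, and 31.8, 36.1 and 34.8 in IR64 drought libraries, against 10.2, 18.0 and 18.4 in IR64 controls. The N22 groups overlapped and the IR64 groups did not. It rose by 1.15 (limma's adjusted p = 0.0205) in N22 and by 1.13 (adjusted p = 0.0280) in IR64, calls that single libraries decided. The N22 call was lost without control 1 or 3 or the first or second drought library (adjusted p up to 0.0803) and with only the 6 libraries compared (0.0507). The IR64 call did not hold without control 1 or any 1 drought library (up to 0.103), without replicate 3 of every group (0.0664), with no minimum level for testing (0.0538) and with array weights (change 0.95).

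LOC_Os03g60580, the next after it, had 590, 740 and 199 FPKM in N22 drought libraries, against 73.2, 68.6 and 74.3 in N22 controls. In IR64 it had 178, 321 and 113 FPKM under drought, against 71.1, 66.5 and 76.3 in controls, again with no overlap. It rose by 2.60 (adjusted p = 0.00220) in N22 and by 1.37 (adjusted p = 0.0436) in IR64, where the call was lost without any 1 control library of either cultivar, the first or second IR64 drought library or the first N22 drought library (adjusted p up to 0.155), and with no minimum level for testing (0.0815). The locus on the other side, LOC_Os03g60550, had changes of 0.14 and 0.10. Beside DST, LOC_Os03g57220 fell in N22 by 1.08 (adjusted p = 0.00277), or -0.89 and not called without the first drought library, and its change in IR64 was -0.99. Neighbours of ZFP252, ZFP179 and ZFP36 held 0 calls under drought. LOC_Os12g39450, near ZFP252, had 0 in every N22 library and 2.97 to 4.99 FPKM in IR64. LOC_Os03g32302, near ZFP36, had 0 in N22 and 2.85 to 4.62 FPKM in IR64. Such a 0 may also stand for a locus that a library did not list. No product is paired with these loci in the tables used, and fragments shared between similar neighbours could be assigned to either.

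The loci with the most similar profile over the 12 libraries were taken by Pearson's r of log2(FPKM + 1), as a description. The 12 libraries fall into treatment groups and share their library-wide shifts. For ZFP182 the 3 closest were LOC_Os07g05940 (r = 0.992), the joint row of LOC_Os05g38270 and LOC_Os05g38290 (0.990) and LOC_Os12g29400 (0.989), which all rose in both cultivars, by 3.77, 3.35 and 3.93 in N22 and by 3.41, 2.63 and 3.18 in IR64. For ZFP179 they were LOC_Os01g72900 (r = 0.996), LOC_Os07g42994 (0.981) and LOC_Os02g53410 (0.980). LOC_Os01g72900 stood at 34.0, 20.1 and 18.7 FPKM in N22 drought libraries, against 3.30, 5.38 and 5.47 in N22 controls, and so shared the high first drought library of ZFP179. When replicate 3 was left out of every group it ranked first again, whereas LOC_Os07g42994 and LOC_Os02g53410 ranked 7 and 17, and the 3 loci of ZFP182 ranked 2, 10 and 21.

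For ZFP252 the closest were LOC_Os02g54580 (0.988), LOC_Os01g58700 (0.988) and LOC_Os07g42994 (0.987), the last of which is also listed for ZFP179. Without replicate 3 these 3 loci ranked 23, 38 and 103 for ZFP252, although their r was no lower (0.992, 0.991 and 0.988). For DST they were LOC_Os11g10460 (0.961), LOC_Os03g56270 (0.957) and LOC_Os09g12750 (0.952). LOC_Os11g10460 had 8.73, 7.70 and 14.3 FPKM in N22 drought libraries, against 21.8, 25.2 and 21.1 in N22 controls, and like DST it fell in N22 (-1.12), a call lost without the second drought library (-0.95). Without replicate 3 the loci of DST ranked 4, 31 and 55. For ZFP36 they were LOC_Os06g43810 (0.957), LOC_Os04g44850 (0.939) and LOC_Os06g44010 (0.931), none of them called in either cultivar and ranked 8, 18 and 31 without replicate 3.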

How the data were processed

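The deposited values are FPKM, which the authors computed with Cufflinks 2.2.1 from TopHat 2.1.1 alignments to the RGAP 7.0 rice genome, per the submitters' processing notes and the design text. The design text also names NGSQC Toolkit 2.3.3 for filtering, says that the genome was indexed with bowtie 2.3.3.0, and that missForest filled a value missing in 1 replicate, without saying whether the deposited files hold such values. The handling of reads that map to several loci is not given in the sources used here. Groups and replicate numbers come from the sample titles.

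The 12 tables were joined (39718 rows), rows of the same name summed (39093 loci), with 0 for a locus that a library did not list (such a 0 may be an estimate that failed). All 5 genes were listed in every library. Of ratios of low values (below 0.2 FPKM) between libraries, 2.54% to 20.1% lay within a 2% window of the commonest one. Whole reads could thus not be worked out, and no counting interval is given. The 24276 loci that reached 1 FPKM in 2 replicates of any group were tested. The 4 group means of log2(FPKM + 1) entered limma 3.58.1 (R 4.3.3) (intensity trend, two-sided moderated tests), with Benjamini-Hochberg adjustment over all loci in each of 5 contrasts and the design text's thresholds. Tables were handled in pandas 2.3.3 (Python 3.11.15) and data.table (1.17.8), plots drawn with matplotlib 3.10.9, and the fit tested on simulated data.

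The 5 genes and the 3 lists (42 further genes) were chosen with earlier results of these data known. Of 42 symbols, 22 were found in a RefSeq gene annotation of another assembly (ASM3414082v1) on the matching chromosome, the symbols ProT1 and LPA1 were found on another chromosome and those genes dropped, and the rest, like the names of the 5, rest on the locus lists alone. LP2 had no row. By rule the text names all 5 genes, list genes called in a contrast or most abundant, neighbours called, and the 3 most similar loci of each gene. The other list genes and neighbours named (such as MSR15, PINE1, CKX2, MYBS1, MPK5, CATC, RbohC, RbohF and RbohI) were chosen after their values were seen. Libraries sharing a replicate number deviated together (12 of 12 correlations above 0.1, from 0.118 to 0.595), so the numbers, given in the titles, were taken to pair the samples. Alternatives were another pseudocount, other filters and scalings, no trend, array weights, a replicate block, only the libraries compared, the adjusted p alone, single rows and leaving out libraries. Leaving out the third drought library of each cultivar was added after the data were seen.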

Additional observations from a re-analysis of the deposited data

How the results depend on the processing

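Of the 5 genes, 4 were called in N22 and 2 in IR64 under drought, and these counts stayed within 1.5 times under all 25 alternatives. With a replicate block they were 4 in N22 and 2 in IR64 as well. The paired fit, which by construction leaves the size of each change the same, changed no call of the 5 genes. For N22 over IR64 under drought the count of 0 became 1 with array weights. Small differences turned sign. When single libraries or replicate 3 were left out, the difference of the drought responses ranged from -0.49 to 0.63 for ZFP182, -0.058 to 0.54 for ZFP179 and -0.48 to 0.13 for ZFP36. N22 minus IR64 under drought ranged from -0.041 to 0.54 for ZFP252, -0.45 to 0.14 for ZFP179 (0.40 with array weights) and -0.31 to 0.21 for ZFP36, and in control from -0.21 to 0.40 for ZFP36. Over all loci, the count for the difference of responses (60) was 924 with array weights, 357 with drought library 3 left out in each cultivar, and 23 to 320 when single libraries were left out (23 without the third IR64 control, 320 without the third N22 drought library). With the adjusted p alone, 9475 loci were called in N22 (2845 with both thresholds), 7272 in IR64 (2031), 5749 between cultivars under drought (2604) and 4626 in control (2407), and with an FPKM minimum of 5, 1586 and 1370 between cultivars. The causes were not tested beyond what each setting changes by construction. With 3 libraries a group, the SE of a change ran from 0.22 (DST) to 0.58 (ZFP182), and read depth, which limits low values, is unknown.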
